A study of Mus musculus with 12 samples.

Results

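The platelet-derived growth factor (PDGF) genes of the mouse are described here in cells of inflamed and healed joints. They are the ligand genes Pdgfa, Pdgfb, Pdgfc and Pdgfd, the receptor genes Pdgfra and Pdgfrb, and Pdgfrl, a gene named for its likeness to the receptors. They were taken by symbol, and 7 of 7 symbols were found among the 27998 genes counted. The cells were live CD45-negative stromal cells from hind limb joints of male C57BL/6 wild-type mice, 8 to 10 weeks old. Arthritis had been started by intravenous serum of K/BxN mice, which carries joint-inflaming antibodies, and the mice at rest had received no treatment. The 12 libraries, each pooled from 3 animals, fall into 4 groups of 3: rest at day 0, peak at days 7 to 9, resolving at day 15 and resolved at day 22. The cells kept numbered 20060 of 21042, with 1227 to 2747 cells and 7468914 to 16566202 unique molecular identifiers (UMIs) per library. Cells as deposited had a median of 5358 UMIs in each of the 12 libraries alike, for which the sources used here give no reason. Whether the counts were evened out between libraries was not tested, so that UMI counts and depths are those of the files. By label, a library held 7468914 to 12341592 UMIs at rest, 8286317 to 14553711 at peak, 7665985 to 10726400 when resolving and 8908613 to 16566202 when resolved.

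PDGF ligands are secreted dimers that bind receptor tyrosine kinases on mesenchymal cells, where they drive growth, movement and matrix production. In blood vessels, PDGF-B made by the endothelium recruits and holds pericytes, which carry the beta receptor, while the alpha receptor is a common mark of fibroblasts. In the synovium, PDGF is a known growth factor of fibroblast-like synoviocytes, the cells that line and fill the membrane.

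In the GRCm38 annotation the 7 genes lie on 6 chromosomes. Pdgfa (ENSMUSG00000025856) is at chr5:138976014-138997370 on the minus strand and Pdgfra (ENSMUSG00000029231) at chr5:75152292-75198215 on the plus strand. Pdgfb (ENSMUSG00000000489) is at chr15:79995874-80014977 (minus), Pdgfc (ENSMUSG00000028019) at chr3:81036416-81214040 (plus), Pdgfd (ENSMUSG00000032006) at chr9:6168584-6378850 (plus) and Pdgfrl (ENSMUSG00000031595) at chr8:40926212-40990785 (plus). Pdgfrb (ENSMUSG00000024620) is at chr18:61045150-61085061 (plus). In all cells kept the genes had 9475 (Pdgfa), 497 (Pdgfb), 2946 (Pdgfc), 2591 (Pdgfd), 13536 (Pdgfra), 8756 (Pdgfrb) and 19378 UMIs (Pdgfrl), in 28.2, 1.95, 11.0, 9.88, 39.4, 28.6 and 37.2% of cells.

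The group labels did not follow the likeness of the libraries. Each library's cell barcodes end in 1 number from 1 to 12, and the files do not say what this suffix marks. Suffixes 1 to 3 belong to replicate 1 of rest, peak and resolving, and suffixes 4 to 6 to replicate 1 of resolved and replicate 2 of rest and peak. Suffixes 7 to 9 belong to replicate 2 of resolving and resolved and replicate 3 of rest, and suffixes 10 to 12 to replicate 3 of peak, resolving and resolved. In summed fibroblast-like cells over 11610 genes, the most highly correlated other library came from the same suffix run for 11 of 12 libraries and carried the same label for 1 of 12. In Hk2-positive fibroblasts the paper reports genes of inflammation and matrix remodelling, Ccl2 and Postn among them, as higher at peak than at rest. Most of them did not differ significantly from rest when resolved. Whether the labels belong to these libraries as deposited was not tested, so every value by label holds only if they do. Comparisons between labels are therefore given as "labelled", with values by suffix run given after them for part of the genes. No barcode sequence without its suffix was shared between libraries (0 of 21042 cells over 66 pairs of libraries).

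Levels were compared over 13 cell types, each named by the markers its clusters resemble, so that every name below means "like" that type. Fibroblasts made up 10752 cells (53.6%) in 9 clusters. They were followed by 1770 vascular endothelial, 1753 tenocyte, 1397 osteoblast, 705 proliferating and 654 perivascular cells, the last being pericytes and vascular smooth muscle. Smaller types were 312 chondrocytes, 267 muscle satellite cells, 186 lymphatic endothelial cells, 132 muscle fibre cells, 112 immune cells, 108 Schwann cells and 60 erythroid cells. The clusters were built without the 7 genes and the pathway genes named further on, but from other genes of the same cells. UMIs were summed per type and library where at least 10 cells were present. This gave 12 libraries for fibroblasts, vascular endothelial cells, tenocytes, osteoblasts and perivascular cells, and 10 for lymphatic endothelial cells. Chondrocytes and muscle satellite cells had 8, proliferating cells 6, muscle fibre 5, immune and Schwann cells 3 and erythroid cells 2, and these numbers of libraries are the n behind every mean and standard deviation (SD) over cell types. The 6 libraries of proliferating cells all belong to suffixes 4 to 9.

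A limit on markers that was set after the clusters had been seen left 1852 cells (9.23%) in 2 clusters without a name. The larger one, 1342 cells led by C1qtnf3, Spon2 and Cthrc1, held all 7 fibroblast markers, and 89.9% of its cells came from suffixes 7 to 9. Its share per library was 0, 1.61 and 26.8% at rest, 0.0741, 3.06 and 0.943% at peak, 0, 15.0 and 1.19% when resolving and 0.642, 22.4 and 0.460% when resolved. Its share was thus high in 1 library each of rest, resolving and resolved. In the 7 libraries with at least 10 of these cells, the level in counts per 1000000 UMIs of the summed cells (CPM) was 366 ± 66.4 for Pdgfrl, 71.7 ± 19.8 for Pdgfa, 71.1 ± 27.5 for Pdgfra and 67.4 ± 19.8 for Pdgfrb (mean ± SD). The smaller one, 510 cells led by Cytl1, Clu and Tnfrsf11b, had 49.9 ± 23.0 CPM of Pdgfc over 11 libraries, the highest mean of the 25 clusters, with 134 ± 52.7 for Pdgfa, 76.9 ± 23.2 for Pdgfra, 32.8 ± 19.9 for Pdgfrb and 147 ± 55.1 for Pdgfrl. Levels of different genes are not compared, since counts from the 3′ end depend on the transcript.

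The PDGF genes differed widely between cell types. Vascular endothelium held most Pdgfb, perivascular and Schwann cells had the highest Pdgfa, and osteoblasts and vascular endothelium the highest Pdgfd. Fibroblasts had the highest Pdgfra, perivascular cells the highest Pdgfrb, and tenocytes and osteoblasts the highest Pdgfrl. Each of 12 types was compared with the fibroblasts of the same libraries in edgeR, with the library as a block, and a gene passed where the log2 fold change exceeded 0.5 in either direction and the adjusted p was under 0.05. The 12 comparisons share the fibroblast sums. Of 84 tests of the 7 genes, 55 passed (65.5%), 18 higher and 37 lower, beside 41349 of 125340 tests of 10445 genes (33.0%).

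By type, 2 of the 7 were higher and 4 lower in vascular endothelial cells, where 52.5% of all genes passed. Lymphatic endothelial cells had 1 higher and 4 lower (37.6% of all genes), and perivascular cells 2 higher and 3 lower (38.5%). In the skeletal types, 4 were higher and 1 lower in tenocytes (18.6%), 3 higher and 1 lower in osteoblasts (28.9%), and 1 higher and 4 lower in chondrocytes (47.1%). Muscle satellite cells and muscle fibre each had 1 higher and 5 lower (36.9% and 51.5%). Proliferating cells had 1 higher and 3 lower (27.5%), Schwann cells 1 and 3 (14.8%) and immune cells 1 and 4 (29.3%). In erythroid cells 0 of 7 passed in edgeR (12.8%), and 2 had an unadjusted p under 0.05 (24.9% of all genes did). DESeq2 called 1 there, Pdgfb, of which these cells had 0 UMIs. The share of the 7 exceeded that of all genes in 11 of 12 types.

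**Figure D1:**
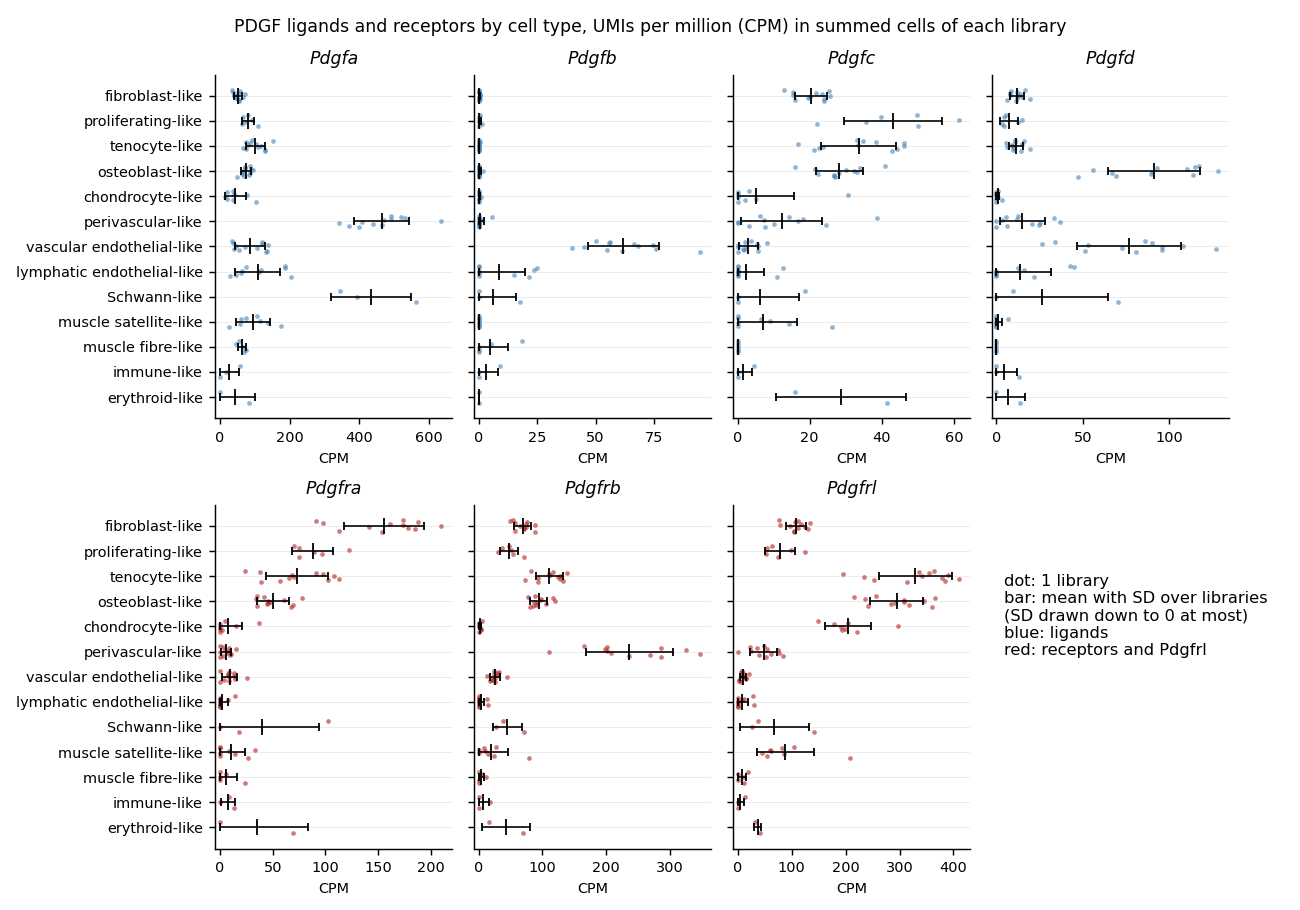
Level of each PDGF gene (x axis, CPM) in 13 cell types (y axis), with 1 dot per library of at least 10 cells, the mean as a tick and the SD as a bar, ligands in blue and receptors in red. Pdgfb stands at 61.8 CPM in vascular endothelial cells, Pdgfra at 155 CPM in fibroblasts and Pdgfrb at 237 CPM in perivascular cells, each the highest of its panel.

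Pdgfa encodes the A chain, whose dimer acts through the alpha receptor. In perivascular cells the lowest, median and highest library had 341, 468 and 635 CPM, against 34.8, 50.8 and 70.2 CPM in fibroblasts. The lowest perivascular library thus lay above the highest fibroblast library. The fitted difference was 3.02 in log2 units, with an SE of 0.15 and an adjusted p of 1.25e-34, higher in 12 of 12 libraries. The 3 Schwann libraries had 344, 394 and 562 CPM, all above every fibroblast library, and they exceeded fibroblasts by 2.68 on the log2 scale (SE 0.31, adjusted p = 9.69e-12). These are supporting cells of vessels and nerves. Pdgfa also passed as higher in tenocytes (1.11, adjusted p = 1.16e-09, 12 of 12 libraries), muscle satellite cells (0.91, 7 of 8 libraries) and osteoblasts (0.53, 11 of 12 libraries). The muscle satellite call was lost without rest replicate 1 (0.58). The osteoblast call was lost without peak replicate 1 (0.47), peak replicate 3 (0.50) or resolved replicate 2 (0.50), with no filter on low counts (0.45), with no library block (0.48), with the 7 genes allowed in clustering (0.44) and with the unnamed C1qtnf3 cluster counted among fibroblasts (0.47), an alternative chosen after seeing the data.

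Around these, the means ordered as perivascular (463 ± 80.1 CPM), Schwann (434 ± 114), lymphatic endothelial (108 ± 64.2), tenocyte (101 ± 26.7), muscle satellite (93.6 ± 48.3), vascular endothelial (86.1 ± 42.7), proliferating (79.6 ± 17.5) and osteoblast (74.3 ± 13.7). Muscle fibre (62.3 ± 11.0), fibroblasts (50.6 ± 11.1), chondrocytes (43.4 ± 30.7), erythroid cells (41.5 ± 58.7) and immune cells (25.2 ± 29.8) had the lowest Pdgfa. Neighbours in this order overlapped within 1 SD except Schwann and lymphatic endothelial cells. In lymphatic and vascular endothelium Pdgfa did not pass (log2 fold changes 0.54 and 0.42), but it passed under other scalings of the libraries, at 0.91, 1.10 and 0.89 in lymphatic cells and 0.51, 0.67 and 0.51 in vascular cells with RLE factors, total counts and DESeq2. Muscle fibre, at 0.56 and higher in 5 of 5 libraries, passed with RLE factors (0.99) and DESeq2 (1.01). At least 1 Pdgfa UMI was found in 72.8% of perivascular cells and 3.33% of erythroid cells, which are blood cells (median depths 3882.5 and 5710 UMIs). With each cell thinned to 2000 UMIs, the shares were 55.1 and 1.67%, with 13 and 0 shallower cells left out. The opposite strand gene 6330403L08Rik, which overlaps Pdgfa, had 202 UMIs against 9475 for Pdgfa, and whether counting used the strand is not given in the sources used here.

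Pdgfb encodes the B chain, the ligand through which endothelium recruits pericytes. In vascular endothelial cells the lowest, median and highest library had 39.7, 58.6 and 94.7 CPM, against 0, 0.162 and 0.50 CPM in fibroblasts. No library overlapped between the types, and these endothelial cells held 457 of the 497 Pdgfb UMIs of all cells kept. On the log2 scale the difference was 7.52 (SE 0.22), higher in 12 of 12 libraries. Pdgfb was kept by the filter on low counts over the sums of all types, but not in fibroblasts or perivascular cells taken alone, which had 11 and 3 UMIs. Its p-values are therefore not given, and the 4 of the 55 calls over types that it gave carry the same limit. A Pdgfb UMI was seen in 19.9% of vascular endothelial cells and 0.102% of fibroblasts (median depths 3176 and 5483 UMIs), or 10.8 and 0.0190% after thinning to 2000 UMIs, which left out 202 and 210 cells. Platelets also hold this ligand. The 5 platelet markers summed to 6.40, 14.7 and 21.3 CPM in the lowest, median and highest vascular endothelial library, with 5 of 5 detected and Itga2b the most abundant at 10.2 CPM. The 7 immune markers there summed to 5.61, 18.7 and 96.1 CPM, led by Cd74 at 10.5 CPM, with Ptprc, the gene of CD45, at 0.268 CPM. In fibroblasts, where Pdgfb was near 0, the same platelet markers summed to 17, 25.8 and 35.6 CPM, with Itga2b at 23.8 CPM, and the immune markers to 2.50, 6.44 and 15.5 CPM. The part of platelets or immune cells in the Pdgfb level was not tested.

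Outside vascular endothelium Pdgfb was near the limit of detection. Lymphatic endothelial cells had 8 UMIs (8.49 ± 11.3 CPM) and passed at a log2 fold change of 4.67, although only 4 of 10 libraries were higher than their fibroblasts. Schwann cells (5.86 ± 10.1 CPM), muscle fibre (4.71 ± 7.95), immune cells (2.98 ± 5.16), perivascular cells (0.597 ± 1.66) and proliferating cells (0.262 ± 0.482) followed with 1 to 3 UMIs each in the libraries of at least 10 cells. Over all libraries a Pdgfb UMI was seen in 4 of 108 Schwann cells (3.70%) and 7 of 186 lymphatic endothelial cells (3.76%). Fibroblasts had 0.175 ± 0.184 CPM from 11 UMIs, and osteoblasts (0.159 ± 0.550), chondrocytes (0.118 ± 0.334) and tenocytes (0.0382 ± 0.132) had 1 UMI each. The only neighbours that did not overlap within 1 SD were vascular and lymphatic endothelial cells. Immune cells and muscle fibre passed as higher from 2 UMIs each, and no fold is given for these as reported. Without peak replicate 2 the immune value was -1.30, on the other side of 0, and muscle fibre lost its call without peak replicate 1 (3.09) or peak replicate 3 (3.34). In erythroid and muscle satellite cells 0 UMIs were counted, which allows up to 22.3 and 4.10 CPM (3 counts of the summed UMIs, counting error only). DESeq2 called Pdgfb higher in both of these types, where no count supports it, and in perivascular, Schwann and chondrocyte cells with 3, 1 and 1 UMIs.

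Pdgfc encodes a ligand with a CUB domain that must be removed before it can act on the alpha receptor. Proliferating cells had 22.1, 44.8 and 61.4 CPM in the lowest, median and highest library, tenocytes 16.7, 34.2 and 46.2 CPM, and fibroblasts 12.9, 21.0 and 25.5 CPM. The ranges of libraries overlapped, yet the proliferating cells were higher than the fibroblasts of the same library in 6 of 6 and the tenocytes in 11 of 12. The log2 fold changes were 0.98 (SE 0.19, adjusted p = 9.81e-06) and 0.83 (SE 0.16, adjusted p = 2.59e-05). Osteoblasts, at 0.43, did not pass, but did at 0.53, 0.52 and 0.52 with RLE factors, total counts and DESeq2. Endothelium stood at the low end, with log2 fold changes of -2.65 in vascular (SE 0.27, adjusted p = 2.44e-15) and -3.39 in lymphatic endothelial cells. Chondrocytes (-2.51) and muscle satellite cells (-2.09) were lower in 7 of 8 libraries each.

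In order over the named types, mean Pdgfc was 43.2 ± 13.7 CPM in proliferating cells, 33.7 ± 10.4 in tenocytes, 28.8 ± 18.0 in erythroid cells, 28.2 ± 6.55 in osteoblasts, 20.2 ± 4.42 in fibroblasts and 12.2 ± 11.2 in perivascular cells. Muscle satellite (6.97 ± 9.38), Schwann (6.20 ± 10.7), chondrocyte (5.12 ± 10.5), vascular endothelial (2.99 ± 2.67), lymphatic endothelial (2.32 ± 4.92) and immune cells (1.49 ± 2.58) lay lower, and every pair of neighbours overlapped within 1 SD. Perivascular cells passed as lower at -0.77 (9 of 12 libraries), at -1.21 without peak replicate 3, and not with total counts (-0.61). The immune call rests on 1 UMI and was lost without peak replicate 2, resolved replicate 2 or resolving replicate 2 (-7.38, -2.76 and -2.66), with total counts (-2.88) and with DESeq2 (-2.49). Muscle fibre had 0 UMIs, which allows up to 5.79 CPM. A UMI of Pdgfc was seen in 13.9% of tenocytes and 1.24% of vascular endothelial cells (median depths 4779 and 3176 UMIs), or 6.13 and 0.510% after thinning, with 25 and 202 cells left out.

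Pdgfd encodes a CUB-domain ligand of the beta receptor. Osteoblasts had 47.2, 91.4 and 128 CPM in the lowest, median and highest library and vascular endothelial cells 26.5, 83.2 and 127 CPM, against 6.06, 11.7 and 19.6 CPM in fibroblasts. All 12 libraries of both types lay above the highest fibroblast library. The log2 fold changes were 2.84 in osteoblasts (SE 0.15, adjusted p = 6.58e-32) and 2.46 in vascular endothelial cells (SE 0.15, adjusted p = 5.83e-28), each higher in 12 of 12 libraries. A Pdgfd UMI was seen in 35.6% of osteoblasts and 0.375% of muscle satellite cells (median depths 5270 and 2573 UMIs), or 18.9 and 0.427% after thinning, with 18 and 33 cells left out.

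Bone-forming and vessel cells thus led Pdgfd, at 91.3 ± 26.5 and 76.7 ± 30.3 CPM. Then came Schwann (26.5 ± 38.2), perivascular (15.0 ± 12.9) and lymphatic endothelial cells (13.7 ± 17.7), fibroblasts (11.8 ± 3.92), tenocytes (11.2 ± 4.05), proliferating (7.28 ± 5.01), erythroid (6.92 ± 9.79) and immune cells (4.36 ± 7.55), muscle satellite cells (0.821 ± 2.32) and chondrocytes (0.639 ± 1.10). Every pair of neighbours overlapped within 1 SD. Chondrocytes passed as lower at -3.03 (8 of 8 libraries, adjusted p = 1.46e-06). Muscle satellite cells had 1 UMI and passed as lower, a call that was lost in sums of at least 30 cells (-2.90) and stood at -6.96 without resolved replicate 3. Muscle fibre had 0 UMIs, which allows up to 5.79 CPM. The gene Ddi1, which lies on the opposite strand within Pdgfd, had 0 UMIs in all cells.

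Pdgfra encodes the alpha receptor, a widely used mark of fibroblasts. In fibroblasts the lowest, median and highest library had 91.5, 167 and 210 CPM, against 0, 5.38 and 15.1 CPM in perivascular cells and 0, 8.18 and 25.7 CPM in vascular endothelial cells. No library of these types reached the lowest fibroblast library. The log2 fold changes were -4.83 in perivascular cells (SE 0.29, adjusted p = 6.61e-29) and -4.30 in vascular endothelial cells (SE 0.20, adjusted p = 6.46e-37), lower in 12 of 12 libraries each. Chondrocytes (-5.53), lymphatic endothelial (-6.39), muscle satellite (-4.21), muscle fibre (-4.96), immune (-3.91) and Schwann cells (-2.39, and -4.87 without peak replicate 3) also passed as lower, in every library that held them. Nearer to fibroblasts were proliferating cells (-0.66, 6 of 6 libraries lower), tenocytes (-0.99, 11 of 12) and osteoblasts (-1.72, 12 of 12). Pdgfra was thus lower in 11 of 12 types, the exception being erythroid cells, which did not pass.

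Its mean was 155 ± 37.7 CPM in fibroblasts, 88.1 ± 19.4 in proliferating cells, 72.9 ± 29.8 in tenocytes, 50.3 ± 14.9 in osteoblasts, 40.0 ± 54.7 in Schwann cells and 34.6 ± 48.9 in erythroid cells. The other types ran from muscle satellite (10.3 ± 13.1), vascular endothelial (9.13 ± 7.00), chondrocyte (7.36 ± 13.2) and immune cells (7.34 ± 6.69) to muscle fibre (5.70 ± 10.1), perivascular (5.70 ± 4.80) and lymphatic endothelial cells (2.21 ± 4.90). Only fibroblasts and proliferating cells did not overlap as neighbours over all their libraries. In the 6 libraries that hold both, proliferating cells had 70.1 to 122 CPM and fibroblasts 91.5 to 161 CPM, which overlap, with proliferating cells lower in 6 of 6. A UMI was seen in 53.8% of fibroblasts and 2.99% of vascular endothelial cells, or 26.8 and 1.21% after thinning, at the depths and with the cells left out given for Pdgfb.

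Pdgfrb encodes the beta receptor, the defining receptor of pericytes. Perivascular cells had 111, 222 and 348 CPM in the lowest, median and highest library, and fibroblasts 48.8, 71.1 and 88.5 CPM. All 12 perivascular libraries lay above the highest fibroblast library. The fitted difference was 1.62 in log2 units, with an SE of 0.12 and an adjusted p of 4.21e-23, higher in 12 of 12 libraries. Tenocytes passed too, at 0.81 (SE 0.11, adjusted p = 3.13e-09, 12 of 12 libraries), while osteoblasts, at 0.39 and higher in 11 of 12 libraries, did not. Chondrocytes stood at the other end, with 8 UMIs and a difference of -4.57 on the log2 scale (SE 0.33, adjusted p = 3.21e-23, lower in 8 of 8 libraries). Vascular endothelial (-1.72, 12 of 12 libraries lower), lymphatic endothelial (-5.17, 10 of 10), muscle satellite (-2.39, 8 of 8) and proliferating cells (-0.63, 6 of 6) also passed as lower. The proliferating call was lost with coarser clusters (-0.46).

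Mean Pdgfrb was 237 ± 68.8 CPM in perivascular cells, 111 ± 21.2 in tenocytes, 94.5 ± 13.3 in osteoblasts, 68.7 ± 12.7 in fibroblasts, 48.1 ± 14.2 in proliferating cells, 44.6 ± 22.9 in Schwann cells and 42.6 ± 37.6 in erythroid cells. Lower means were found in vascular endothelial (25.6 ± 8.06), muscle satellite (19.8 ± 25.5) and immune cells (5.80 ± 10.0), muscle fibre (3.26 ± 4.93), lymphatic endothelial cells (2.74 ± 5.81) and chondrocytes (1.24 ± 1.77). Only perivascular cells and tenocytes did not overlap as neighbours. Schwann cells passed as lower from 9 UMIs (-1.32), a call lost without peak replicate 3 (-1.06), resolved replicate 1 (-1.26), resolved replicate 3 (-1.09), resolving replicate 2 (-1.27) or rest replicate 2 (-1.24), and with RLE factors (-0.84), total counts (-0.72) or DESeq2 (-0.82), without the cells of highest doublet score (-1.66) and with no library block (-1.19). Immune cells and muscle fibre passed as lower with 1 and 2 UMIs, the immune value being -9.02 without resolved replicate 2. A Pdgfrb UMI was seen in 56.4% of perivascular cells and 2.24% of chondrocytes (median depths 3882.5 and 12533.5 UMIs), or 37.9 and 0.962% after thinning, with 13 and 0 cells left out.

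Pdgfrl encodes a secreted protein with an immunoglobulin fold like that of the receptors but no kinase. In the lowest, median and highest library, tenocytes had 196, 348 and 410 CPM, osteoblasts 215, 301 and 366 CPM and chondrocytes 149, 196 and 298 CPM, against 76.1, 109 and 134 CPM in fibroblasts. All libraries of these 3 skeletal types lay above the highest fibroblast library. The log2 fold changes were 1.74 in tenocytes (SE 0.13, adjusted p = 7.59e-22), 1.37 in osteoblasts (SE 0.13, adjusted p = 6.96e-17) and 1.10 in chondrocytes (SE 0.16, adjusted p = 2.55e-09), higher in every library that held them. Lower values passed in vascular (-3.81) and lymphatic endothelial cells (-4.31), perivascular cells (-1.28), proliferating cells (-0.68) and muscle fibre (-4.13, 3 UMIs). Muscle satellite cells passed at -0.62, a call that was lost without peak replicate 3 (-0.64), resolved replicate 1 (-0.55), resolved replicate 3 (-0.60), resolving replicate 2 (-0.52), resolving replicate 3 (-0.59) or rest replicate 1 (-0.59). It was also lost with RLE factors (-0.49), total counts (-0.40), DESeq2 (-0.46) and coarser clusters (-0.58). Schwann cells passed at -1.29 and not without peak replicate 3 (-0.80), resolved replicate 1 (-1.18) or resolved replicate 3 (-1.07), nor with RLE factors (-0.78), total counts (-0.68), DESeq2 (-0.71) or coarser clusters (-1.13), and stood at -2.19 without rest replicate 1. The immune call rests on 3 UMIs and stood at -10.08 without peak replicate 2.

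The order of mean Pdgfrl ran from tenocytes (330 ± 67.7 CPM), osteoblasts (295 ± 49.6) and chondrocytes (204 ± 43.4) over fibroblasts (108 ± 18.2), muscle satellite (88.0 ± 52.4), proliferating (78.5 ± 28.2), Schwann (68.0 ± 63.1) and perivascular cells (48.0 ± 24.9) to erythroid cells (36.8 ± 6.71). Vascular endothelial cells (9.51 ± 5.73), muscle fibre (8.22 ± 8.03), lymphatic endothelial (7.87 ± 12) and immune cells (4.47 ± 7.75) had the lowest means. Neighbours did not overlap within 1 SD between chondrocytes and fibroblasts and between erythroid and vascular endothelial cells. A UMI was seen in 67.9% of osteoblasts and 2.54% of vascular endothelial cells (median depths 5270 and 3176 UMIs), or 42.4 and 1.28% after thinning, with 18 and 202 cells left out.

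Within perivascular cells, a finer clustering separated 157 pericytes and 200 vascular smooth muscle cells and left 297 unnamed. Pdgfrb was 277 to 386 CPM in the 4 pericyte libraries and 73.3 to 192 CPM in the 9 smooth muscle libraries, with means of 316 ± 48.7 and 118 ± 38.0. The ranges did not overlap. Mean Pdgfrl was 59.2 ± 12 CPM in pericytes and 2.24 ± 4.87 CPM in smooth muscle. The pericyte libraries are all of suffixes 4 to 9, and only resolving replicate 2 and resolved replicate 2 hold both kinds. There Pdgfrb was 277 and 386 CPM in pericytes and 98.9 and 98.4 CPM in smooth muscle, and Pdgfrl 52.0 and 50.7 against 0 and 14.1 CPM. Pdgfc had 33 UMIs in smooth muscle and 1 in pericytes, but 2 and 1 in these shared libraries, so that its levels come from unlike libraries. Pdgfa was high in both, at 440 ± 156 CPM in pericytes and 558 ± 85.8 CPM in smooth muscle, within 1 SD of each other. No test was run between these sets of cells.

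Vascular endothelium fell into a cluster led by Timp4, Gpihbp1 and Cd36, genes known from capillaries, and one led by Plvap, Selp and Lrg1, genes known from venules. Pdgfd was 112 ± 35.9 CPM in the Timp4 cluster and 48.4 ± 15.9 CPM in the Plvap cluster, higher in the former in 12 of 12 libraries. Pdgfa ran the other way, at 34.1 ± 21.2 and 119 ± 34.8 CPM, and was higher in the Plvap cluster in all 12. Pdgfb was within 1 SD in both (62.3 ± 19.9 and 61.0 ± 16.5 CPM, higher in the Timp4 cluster in 7 of 12). Pdgfrb was 10.5 ± 17.8 CPM in the Timp4 cluster (27 UMIs) and 46.8 ± 24.7 CPM in the Plvap cluster (156 UMIs), lower in the former in 10 of 12 libraries and overlapping within 1 SD. The part of pericyte RNA in these values was not tested. Among tenocytes, a cluster of 177 cells led by Ptx4, Chodl and Prph had Pdgfa at 244 ± 81.0 CPM over 8 libraries, the highest after perivascular and Schwann cells. These clusters were compared without a test. The share of all genes that differ between the endothelial clusters in all 12 libraries is not given here.

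Pdgfra alone was counted in 37.3% of fibroblasts, Pdgfrb alone in 12.6%, both in 16.5% and neither in 33.6%, and the product of the separate shares was 15.6%. With cells thinned to 2000 UMIs the shares were 23.2, 8.98, 3.61 and 64.2%, and the product was 3.37%. In perivascular cells Pdgfrb alone was counted in 54.4% and both receptors in 1.99%. Both were also counted in 3.33% of the 60 erythroid cells and 0.395% of vascular endothelial cells, and the part of free RNA in any of these shares was not tested. A count of 0 in a cell does not show that the receptor was absent, and Wilson 95% intervals computed for the shares of single genes cover counting error only.

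The pathway list held 56 other genes, from partners, adaptors, kinases and inhibitors of the receptors to induced early genes and related receptors with their ligands, of which 50 passed the filter on low counts in the comparison of types. In perivascular cells 17 of the 50 were higher and 11 lower, where 38.5% of all genes passed, with a median log2 fold change of 0.13 beside -0.07 for all genes. Spry4, an inhibitor of receptor kinase signalling (3.16), Il34, a ligand of the macrophage receptor Csf1r (3.06), and Kitl, the ligand of Kit (2.88), were the highest. Lrp1, a scavenger receptor that binds the beta receptor (-2.92), Flt3l (-1.95) and Csf1 (-1.20), both blood cell growth factors, were the lowest. In vascular endothelial cells 19 were higher and 14 lower (52.5% of all genes passed), with a median of -0.12 beside 0.03. Kitl (4.31), Spry1, another inhibitor of receptor kinases (2.81), and Nrp1, a coreceptor for vascular growth factors (2.79), led there, while Lrp1 (-4.14), the chemokine gene Ccl2 (-3.20) and Plau, the gene of urokinase (-2.90), were lowest.

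In tenocytes 12 of the 50 pathway genes were higher and 10 lower (18.6% of all genes passed), from Spry1 (1.60), the ERK phosphatase Dusp6 (1.34) and Plat, the gene of tissue plasminogen activator (1.30), to the scaffold gene Slc9a3r1 (-2.43) and the chemokine Cxcl2 (-2.93). Osteoblasts had 9 higher and 11 lower (28.9%), from the matrix protein gene Sparc (1.35), Spry4 (1.13) and Plat (1.07) to Ccl2 (-3.30) and Slc9a3r1 (-3.36). In chondrocytes 9 were higher and 23 lower (47.1%), in muscle satellite cells 12 and 16 (36.9%), in lymphatic endothelial cells 6 and 19 (37.6%), in immune cells 3 and 19 (29.3%) and in Schwann cells 6 and 9 (14.8%). Muscle fibre had 1 higher and 38 lower (51.5%), with a list median of -2.33 where the median of all genes was itself -1.16. Proliferating and erythroid cells had 15 and 11 lower (27.5% and 12.8% of all genes passed in either direction). The split between higher and lower depends on how the libraries are scaled. With TMM factors, 40.8% of all calls over the 12 types were higher, and with RLE factors, total counts and DESeq2 the shares were 47.0, 49.3 and 51.2%. The median of all genes moved by over 0.1 in 7, 8 and 10 of 12 types, by -0.16 to 0.48, -0.24 to 0.59 and -0.12 to 0.94 on the log2 scale.

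Each PDGF gene had other genes with a closely similar spread over 12 types (Pearson correlation of log2 mean CPM with 1 added, over 11259 genes). For Pdgfa these were Ngfr, a neurotrophin receptor (0.93), Mmp17, a membrane-bound protease (0.90), and Zc2hc1a (0.87). Pdgfb was most like Adgrg1, an adhesion receptor (0.97), Ptprb, the endothelial phosphatase VE-PTP (0.93), and Myct1 (0.92). For Pdgfc they were Nptxr (0.97), the collagen gene Col5a2 (0.97) and Lox, which cross-links collagen (0.96), and for Pdgfd Fat4, a large cadherin (0.93), Mylip (0.92) and Gnpda2 (0.91). Pdgfra was most like the claudin gene Cldn10 (0.96), the growth factor gene Igf1 (0.94) and the chemokine gene Cxcl14 (0.93). Pdgfrb resembled Slit3, a guidance ligand (0.94), Cygb, the gene of cytoglobin (0.92), and the complement gene C1s1 (0.91), and Pdgfrl Tceal3 (0.96), Srpx2 (0.94) and Islr (0.94). Among the 7 genes themselves, Pdgfc correlated with Pdgfrl (0.80), Pdgfra (0.78) and Pdgfrb (0.75), and Pdgfb ran against Pdgfrl (-0.74). These are descriptions over 12 points that share libraries.

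Fibroblast clusters also differed in PDGF genes. Each of the 9 was compared with the mean of the other 8, with the library as a block, so that the comparisons share their sums. Not every library holds all 9, and counts of libraries higher or lower use the other clusters present in each library. Clusters are called by their leading gene. A cluster led by F13a1, Prg4 and Col22a1 carried lining markers and a cluster led by Pi16, Stmn4 and Efhd1 sublining markers. Pdgfb, with 11 UMIs in fibroblasts, did not pass the filter, and the other 6 genes gave 54 tests, of which 31 passed (57.4%), 17 higher and 14 lower, beside 13668 of 62235 for 6915 genes (22.0%).

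The counts of higher and lower PDGF genes were 2 and 3 in the lining cluster (32.2% of all genes passed), 1 and 2 in the Pi16 cluster (18.5%), 5 and 1 in the Nppc cluster (31.6%) and 2 and 3 in the Ccl11 cluster (17.3%). The Anxa8 cluster had 2 and 2 (14.0%) and the Cxcl5 cluster 2 and 1 (25.4%). In the Hp cluster 2 were higher (12.7%), in the Inmt cluster 1 was higher (15.5%), and in the Ifi205 cluster 2 were lower (30.5%). With total counts as the scale, the share of all calls that were higher moved from 57.3 to 22.5% in the Ifi205 cluster, from 53.9 to 69.0% in the Anxa8 cluster and from 50.1 to 60.2% in the Nppc cluster, and the median of all genes moved by -0.29 and 0.11 on the log2 scale in the Ifi205 and Anxa8 clusters.

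**Figure D2:**
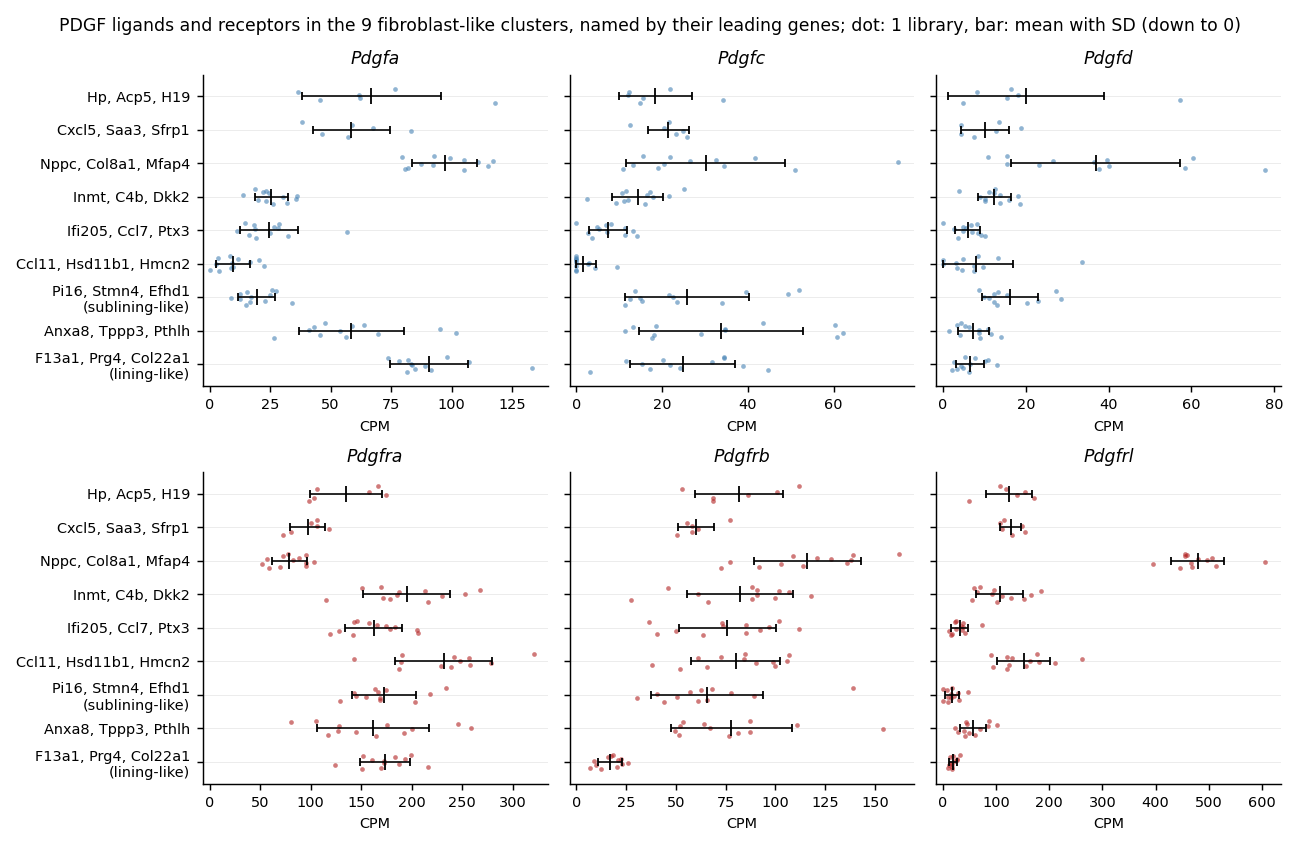
Level of 6 PDGF genes (x axis, CPM) in 9 fibroblast clusters named by their leading genes (y axis), with 1 dot per library of at least 10 cells, the mean as a tick and the SD as a bar. Pdgfrb is lowest in the F13a1 cluster (16.8 CPM) and Pdgfrl highest in the Nppc cluster (479 CPM).

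Lining fibroblasts, the cells that face the joint space, had little Pdgfrb. The lowest, median and highest library had 6.70, 17.9 and 25.9 CPM, and no other cluster had a library under 27.5 CPM. On the log2 scale the difference was -2.25 (adjusted p = 5.30e-28, SE 0.13), lower in 12 of 12 libraries. Pdgfrl was low as well, at 8.94, 17.3 and 31.8 CPM and -2.42 (SE 0.16, adjusted p = 3.46e-25, 12 of 12 lower). Pdgfa was high, at 73.6, 84.1 and 133 CPM and 1.33 (SE 0.09, adjusted p = 6.10e-24, 12 of 12 higher). Pdgfc passed as higher (0.59, higher in 10 of 12 libraries) and Pdgfd as lower (-0.70, lower in 10 of 12). Pdgfra did not differ by the test, at 0.13 and 173 ± 24.7 CPM.

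The Nppc cluster (826 cells; Nppc encodes C-type natriuretic peptide) had the highest Pdgfrl of the 9, at 396, 467 and 606 CPM in the lowest, median and highest library. Each of these libraries lay above every library of the other 8 clusters. The fitted difference was 2.96 in log2 units, with an SE of 0.10 and an adjusted p of 2.30e-46, higher in 12 of 12 libraries. Pdgfd (2.06, 36.8 ± 20.5 CPM), Pdgfa (1.48, 97.2 ± 13.5 CPM), Pdgfc (1.17, 30.2 ± 18.6 CPM) and Pdgfrb (0.82, 116 ± 26.9 CPM) were also higher. Pdgfra was lower in 12 of 12 libraries (-1.16, SE 0.10, 78.9 ± 17.2 CPM).

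The Ccl11 cluster (804 cells; Ccl11 encodes the chemokine eotaxin) had the least Pdgfa and Pdgfc. Pdgfa was 0, 8.90 and 22.5 CPM in the lowest, median and highest library, and it was lower in 12 of 12 libraries, at -2.34 on the log2 scale (adjusted p = 7.97e-16, SE 0.22). Pdgfc stood at 1.65 ± 2.94 CPM from 7 UMIs (-3.12). Pdgfra was the highest of the 9 clusters, at 143, 241 and 321 CPM (0.62, SE 0.09, adjusted p = 3.53e-09, 12 of 12 higher), and Pdgfrl was higher (1.07, 152 ± 50.0 CPM). Pdgfd passed as lower at -0.93, from 20 UMIs. That call was lost without peak replicate 1 (-0.94), peak replicate 2 (-0.93), peak replicate 3 (-0.72), resolved replicate 2 (-0.94), resolved replicate 3 (-0.78), resolving replicate 1 (-0.85), resolving replicate 3 (-0.84), rest replicate 1 (-0.83) or rest replicate 3 (-0.95), and with RLE factors (-0.90), total counts (-0.90) or DESeq2 (-0.85).

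Pi16 fibroblasts had low Pdgfrl, at 0, 15.4 and 47.2 CPM in the lowest, median and highest library (-2.31, SE 0.17, adjusted p = 2.43e-21, 12 of 12 lower). Pdgfa was lower too (-1.32, 19.4 ± 7.49 CPM, 12 of 12), and Pdgfc was higher (0.87, 25.9 ± 14.4 CPM, 11 of 12). Pi16 is a known mark of adventitial fibroblasts. In the Anxa8 cluster Pdgfc (0.95) and Pdgfa (0.61) were higher and Pdgfrl (-0.64) and Pdgfd (-0.93) lower, and in the Inmt cluster Pdgfrl was higher (0.67). The Ifi205 cluster had lower Pdgfrl (-1.23) and Pdgfa (-0.55), the latter not passing without resolved replicate 3 (-0.50). Under other scalings its Pdgfc (-0.84 with total counts, -0.72 with DESeq2) and Pdgfd (-0.80 with total counts) passed too, as did Pdgfa in the Inmt cluster (-0.53 with total counts). The Cxcl5 and Hp clusters had 6 libraries each, with 74.7% of cells from suffixes 4 to 6 and 89.3% from suffixes 7 to 9. Both had higher Pdgfa (0.60 and 0.66) and Pdgfrl (1.05 and 0.85), and the Cxcl5 cluster had lower Pdgfra (-0.55, 97.2 ± 17.2 CPM), a call lost without peak replicate 2 (-0.48) and with no filter on low counts (-0.41).

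Over the 9 clusters mean Pdgfra ordered from the Ccl11 (232 ± 48.0 CPM), Inmt (195 ± 43.3), lining (173 ± 24.7), Pi16 (173 ± 31.1), Ifi205 (163 ± 28.2), Anxa8 (162 ± 55.3) and Hp clusters (135 ± 35.7) to the Cxcl5 (97.2 ± 17.2) and Nppc clusters (78.9 ± 17.2). For Pdgfrb, the Nppc cluster came first (116 ± 26.9), then Inmt (82.1 ± 26.6), Hp (81.6 ± 22.3), Ccl11 (80.0 ± 22.2), Anxa8 (77.9 ± 30.4), Ifi205 (75.9 ± 24.3), Pi16 (65.5 ± 28.1), Cxcl5 (60.2 ± 9.08) and lining (16.8 ± 6.18). Neighbours overlapped within 1 SD except the Cxcl5 and lining clusters for Pdgfrb. Of the pathway list, 46 genes were tested in these clusters.

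In the Ccl11 cluster 17 of the 46 pathway genes were higher and 3 lower (17.3% of all genes passed), with a median log2 fold change of 0.31, led by Spry1 (2.99), Ccl2 (1.90) and Cxcl2 (1.80), and 7 of 9 early response genes were higher (median 1.02). In the lining cluster 6 were higher and 19 lower (32.2%), from Slc9a3r1 (3.34), the protease gene Furin (2.85) and the phosphatase gene Ptprj (1.04) to Plat (-2.08), Ccl2 (-2.30) and Spry1 (-2.45), and 1 of 9 early response genes was higher and 7 lower (median -0.69). The Nppc cluster had 10 higher and 13 lower (31.6%), with Pik3r1, a regulatory subunit of PI3 kinase (2.00), Il34 (1.87) and the adaptor gene Gab1 (1.27) at the top and the integrin gene Itgb3 (-3.89) at the bottom. The Ifi205 cluster had 12 higher and 4 lower (30.5%), from Cxcl2 (3.07), Ccl2 (2.74) and Plau (2.36) to Dusp6 (-1.88). The other clusters had 13 higher and 9 lower (Inmt, 15.5%), 6 and 6 (Pi16, 18.5%), 5 and 9 (Cxcl5, 25.4%), 2 and 9 (Anxa8, 14.0%) and 3 and 5 (Hp, 12.7%), and the list median was lowest in the Anxa8 cluster (-0.19), below the Hp (-0.17) and lining clusters (-0.13). Of the early response genes, 6 were higher and 3 lower in the Inmt cluster, 4 and 4 in Nppc and 4 and 2 in Ifi205. These counts were 3 and 4 in the Cxcl5, 1 and 1 in the Pi16, 0 and 4 in the Anxa8 and 0 and 2 in the Hp cluster.

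Between labels, whose match to the libraries is open, no PDGF gene passed in any of 3 cell types. In fibroblasts 0 of 6 tested genes passed in edgeR at peak, resolving or resolved against rest (0% of 11610 genes), none had an unadjusted p under 0.05 (0 of 6), and DESeq2 called 0 of 6. Of all genes, 69, 116 and 83 had an unadjusted p under 0.05, 268 in all. With the suffix run as a block this sum was 1145, with still 0 genes passing, and with the replicate number as a block 350. Under the suffix run block 1 of 18 tests of PDGF genes had an unadjusted p under 0.05, Pdgfrb at peak (log2 fold change -0.30, SE 0.12, unadjusted p = 0.0281 in edgeR), which did not pass after adjustment. The log2 fold changes of the 6 ran from -0.28 to 0.22. Pdgfra had 113, 154 and 185 CPM in the libraries labelled rest, 91.5, 174 and 188 at peak, 141, 178 and 210 when resolving and 97.3, 161 and 174 when resolved. These ranges overlapped for every pair of labels.

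In perivascular cells 0 of 3 tested genes (Pdgfa, Pdgfrb and Pdgfrl) passed in edgeR in each comparison (0% of 3195 genes), 0 had an unadjusted p under 0.05, against 41, 75 and 46 of all genes, and DESeq2 called 0. Pdgfrb had 236, 270 and 286 CPM in libraries labelled rest, 166, 201 and 287 at peak, 111, 208 and 348 when resolving and 199, 201 and 326 when resolved, and all labels overlapped. Pdgfa had 369, 399 and 466 CPM at rest, 492, 519 and 532 at peak, 341, 408 and 440 when resolving and 470, 491 and 635 when resolved. All libraries labelled peak and all labelled resolved lay above all labelled rest for 1 of 3 genes, Pdgfa, as did or lay wholly below 4.76% of all genes at peak and 5.51% when resolved, and for 0 of 3 when resolving (6.70%). In the finer clustering, libraries labelled peak had at least 10 cells only of smooth muscle (20, 14 and 34 cells), as did rest replicate 1 (27). Rest replicates 2 and 3 had them only of pericytes (14 and 19 cells). Mean Pdgfa was 558 CPM in smooth muscle and 440 CPM in pericytes, within 1 SD of each other. The part of this make-up in the Pdgfa levels by label was not tested. Log2 fold changes in perivascular cells ran from -0.84 to 0.33. With the suffix run as a block, Pdgfrb stood at -0.38 at peak, -0.56 when resolving and -0.38 when resolved, against -0.26, -0.26 and -0.14 without it. Of 9 tests under this block, 0 had an unadjusted p under 0.05 in edgeR.

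In vascular endothelial cells 0 of 4 tested genes (Pdgfa, Pdgfb, Pdgfd and Pdgfrb) passed in edgeR (0% of 6942 genes), 0 had an unadjusted p under 0.05, against 90, 178 and 100 of all genes, and DESeq2 called 0. Pdgfb had 54.9, 61.2 and 94.7 CPM in libraries labelled rest, 50.3, 55.7 and 56.1 at peak, 39.7, 44.8 and 75.8 when resolving and 66.2, 68.3 and 74.5 when resolved. Each label overlapped with rest. Pdgfd had 51.5, 80.7 and 96.0 CPM at rest, 34.0, 85.7 and 90.1 at peak, 72.4, 95.9 and 127 when resolving and 26.5, 53.2 and 108 when resolved. Log2 fold changes ran from -0.76 to 0.56. In each suffix run that holds a library labelled rest, that library had the highest Pdgfd (96.0, 51.5 and 80.7 CPM). In suffixes 1 to 3 the next library was nearly equal, at 95.9 CPM. This order was seen in the values and not looked for in other genes. With the suffix run as a block, Pdgfd stood at -0.47 at peak, -0.14 when resolving and -0.49 when resolved, against -0.06, 0.39 and -0.18 without it. At peak Pdgfa was then -0.30 and Pdgfrb 0.72, against -0.76 and 0.47. Of 12 tests under this block, 0 had an unadjusted p under 0.05 in edgeR. With 3 libraries a label and the suffix runs crossing the labels, a missed threshold does not show that levels were equal.

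By suffix run, 1 of 6 genes in fibroblasts stood apart, meaning that all libraries of 1 run lay above or below all others (37.9% of all genes did). This was Pdgfra, with 91.5, 97.3 and 113 CPM in suffixes 4 to 6 against 141 to 210 CPM elsewhere. In vascular endothelial cells 1 of 4 stood apart (17.7% of all genes). This was Pdgfd, with 26.5, 34.0 and 51.5 CPM in the same run against 53.2 to 127 CPM elsewhere. In perivascular cells 0 of 3 did (14.9%). The libraries of suffixes 4 to 6 carry the labels rest, peak and resolved. The Cxcl5 cluster, which drew most of its cells from the same suffixes, was also low in Pdgfra, and its part in the level was not tested.

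The make-up of the vascular endothelium moved with the suffix runs as well. The Timp4 and Plvap clusters held 253 and 134 cells in suffixes 1 to 3, 86 and 215 in suffixes 4 to 6, 93 and 204 in suffixes 7 to 9 and 648 and 137 in suffixes 10 to 12. Within the Timp4 cluster, Pdgfd in suffixes 4 to 6 was 137 (rest replicate 2, 13 UMIs), 61.2 (peak replicate 2, 6 UMIs) and 28.3 CPM (resolved replicate 1, 2 UMIs), against 92.9 to 156 CPM elsewhere. Within the Plvap cluster it was 38.5, 27.4 and 26.0 CPM, against 34.2 to 73.9 CPM elsewhere. The run overlapped with the others within each cluster through rest replicate 2, while peak replicate 2 and resolved replicate 1 were the 2 lowest of the 12 libraries in both. The part of the make-up in the run difference was not tested. Pdgfa, the gene higher in the Plvap cluster, was 35.4 to 72.5 CPM in suffixes 1 to 3 and 37.7 to 44.9 CPM in suffixes 10 to 12 of all vascular endothelial cells, and 119 to 135 and 105 to 138 CPM in suffixes 4 to 6 and 7 to 9. This split into pairs of runs was seen in the values and not looked for in other genes. Within the Plvap cluster Pdgfa was 64.0 to 107 and 67.0 to 139 CPM in suffixes 1 to 3 and 10 to 12. There it was 132 to 151 and 132 to 167 CPM in suffixes 4 to 6 and 7 to 9. Within the Timp4 cluster it was 17.1 to 45.5 and 23.1 to 27.7 CPM, against 14.1 to 71.4 and 19.5 to 78.3 CPM.

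**Figure D3:**
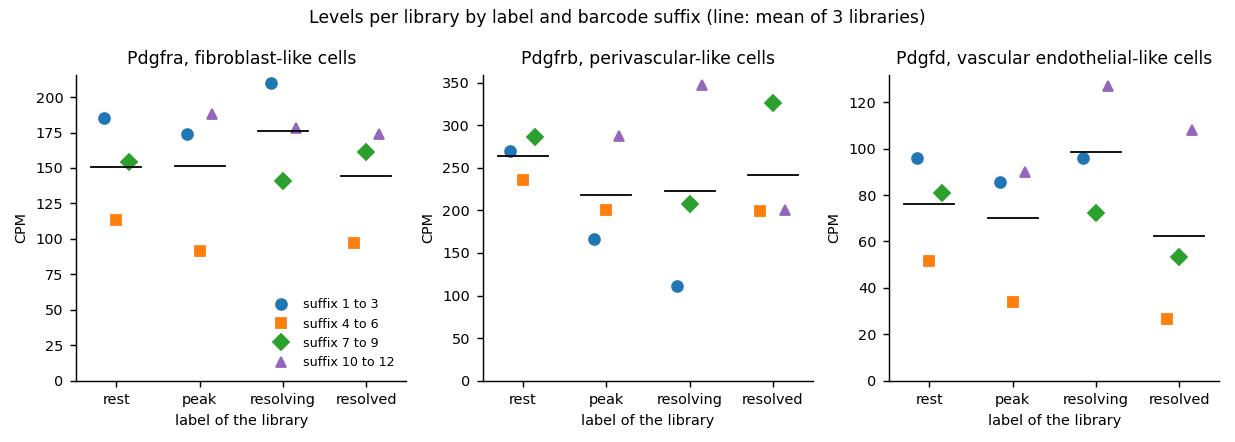
Levels per library (y axis, CPM) of Pdgfra in fibroblasts, Pdgfrb in perivascular cells and Pdgfd in vascular endothelial cells by label (x axis), with colour and marker giving the suffix run and a line the mean of 3 libraries. The libraries of suffixes 4 to 6 have the lowest Pdgfra (91.5 to 113 CPM) and the lowest Pdgfd (26.5 to 51.5 CPM).

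The study's subject is hexokinase 2, the glucose-phosphorylating enzyme encoded by Hk2, so fibroblasts with and without an Hk2 UMI were compared within each library. The 5208 positive cells and 5544 negative cells gave 9776 tested genes, of which 431 were higher and 268 lower in positive cells (7.15%). Of the PDGF genes 0 of 6 passed in edgeR, 2 had an unadjusted p under 0.05 (41.9% of all genes did), and DESeq2 called 0. The pair were Pdgfd (log2 fold change -0.46, SE 0.12, adjusted p = 0.00475, lower in 11 of 12 libraries) and Pdgfrl (-0.37, SE 0.09, adjusted p = 0.00396, lower in 10 of 12), both short of the fold needed. With equal numbers of positive and negative cells drawn per library and cluster, Pdgfrl stood at -0.09 and Pdgfd at -0.32. Pdgfd had 5.14, 9.25 and 13.4 CPM in the lowest, median and highest library of positive cells and 6.81, 14.2 and 24.8 CPM in negative cells, which overlap. Pdgfd passed with total counts (-0.58) and without peak replicate 2 (-0.52) or resolved replicate 2 (-0.53). Pdgfc (-0.12), Pdgfa (-0.05), Pdgfra (-0.01) and Pdgfrb (-0.01) did not pass either. In CPM on total counts these were lower in most libraries too, Pdgfra in 11 of 12 (150 ± 39.5 against 163 ± 33.8 CPM) and Pdgfa, Pdgfc and Pdgfrb in 9 of 12. Of 51 tested pathway genes 10 were higher and 1 lower, led by the chemokine genes Cxcl2 (1.97), Ccl2 (1.75) and Cxcl1 (1.68), each in 12 of 12 libraries, with Pik3r1 lower (-0.65), and the median was 0.14 beside -0.01 for all genes. Of the 10, 5 were early response genes. The list was chosen with earlier results of these data known. The paper itself reports more pro-inflammatory molecules in Hk2-positive fibroblasts, so these counts are a description and no sign of PDGF signalling. With total counts, 270 genes were higher and 650 lower (29.3% higher, against 61.7%), and the median of all genes moved by -0.13. UMIs per cell were not evened out between positive and negative cells, though a cell counted as positive from 1 Hk2 UMI. In an alternative with each cell thinned to 2000 UMIs, 565 of 6373 tested genes passed.

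Promoter sequences from RefSeq (GRCm38.p6, 300 bases around the transcript start) were found for 4 of the 7 genes, and not for Pdgfb, Pdgfrb and Pdgfrl. Those of Pdgfa, Pdgfd and Pdgfra are shown because these genes were highest in different cell types, perivascular cells, osteoblasts and fibroblasts. They were searched on both strands for the TATA box TATAAA and the GC box GGGCGG, found in 13.6 and 35.7% of 32851 promoters, and capitals mark the matches (CCGCCC is the GC box on the other strand). The Pdgfa entries at chr5:138994232-138994531 and chr5:138994895-138995194, both on the minus strand, held 1 and 2 GC boxes and 67.0 and 73.3% G and C, beside a median of 52.7% for all promoters. The Pdgfd entry at chr9:6168236-6168535 (plus strand, 56.7%) held 1 TATA box, and the Pdgfra entry at chr5:75152001-75152300 (plus strand, 51.0%) neither motif. The Pdgfc entry at chr3:81036166-81036465 (plus strand, 55.0%) also held neither. A match is a description of these letters only.
Pdgfa promoter chr5:138994232-138994531: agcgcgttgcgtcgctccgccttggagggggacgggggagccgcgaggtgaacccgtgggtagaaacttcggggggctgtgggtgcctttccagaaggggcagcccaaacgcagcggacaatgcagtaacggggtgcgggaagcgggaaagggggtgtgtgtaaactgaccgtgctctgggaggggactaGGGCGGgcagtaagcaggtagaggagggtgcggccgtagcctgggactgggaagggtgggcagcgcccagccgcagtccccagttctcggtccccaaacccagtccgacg
Pdgfa promoter chr5:138994895-138995194: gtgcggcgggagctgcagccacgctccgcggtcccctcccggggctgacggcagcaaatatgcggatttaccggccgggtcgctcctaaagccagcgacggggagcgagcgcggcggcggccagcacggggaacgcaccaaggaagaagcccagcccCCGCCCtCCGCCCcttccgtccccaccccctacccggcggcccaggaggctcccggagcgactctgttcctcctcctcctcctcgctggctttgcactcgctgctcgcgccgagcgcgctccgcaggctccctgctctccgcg
Pdgfd promoter: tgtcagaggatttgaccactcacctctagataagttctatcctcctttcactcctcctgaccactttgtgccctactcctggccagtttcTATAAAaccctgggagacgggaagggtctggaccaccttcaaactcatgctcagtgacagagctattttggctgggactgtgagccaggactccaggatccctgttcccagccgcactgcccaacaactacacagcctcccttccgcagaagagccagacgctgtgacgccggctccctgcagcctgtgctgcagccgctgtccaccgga
Pdgfra promoter: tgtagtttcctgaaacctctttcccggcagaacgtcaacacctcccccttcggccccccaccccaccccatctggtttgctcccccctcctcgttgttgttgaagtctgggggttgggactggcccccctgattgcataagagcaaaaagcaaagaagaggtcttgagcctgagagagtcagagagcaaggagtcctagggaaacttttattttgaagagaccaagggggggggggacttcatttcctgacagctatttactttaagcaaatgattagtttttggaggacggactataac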

How the data were processed

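The deposited files hold UMI counts by gene and cell for 12 libraries, made by the authors (10x 3′ version 2 chemistry, Cell Ranger, mm10). Cells with more than 500 and fewer than 5000 genes and more than 500 UMIs up to a limit per library were kept. They were normalised to 10000 UMIs and clustered with scanpy 1.11.5 and leidenalg 0.10.2 (2000 variable genes, 30 components, 20 neighbours, resolution 1), leaving out the PDGF and pathway genes. Clusters were named from fixed marker lists. Scrublet called 56 cells doublets, which were kept, and an alternative left 18856 cells without the highest doublet scores. How many markers a name needs was settled after the clusters had been seen. UMIs summed per library and type (at least 10 cells) were tested in edgeR 4.0.16 (TMM, quasi-likelihood, R 4.3.3) over all genes past its filter, with the library as a block where types or cells within libraries were compared. DESeq2 1.42.0, other scalings, no gene filter, other cell filters, clusterings and blocks, and leaving out each library were tried. The code was tested on simulated data. The genes and lists were chosen with earlier results of these data known. Named genes are the 7, at most the 3 largest changes each way among pathway genes that passed, and the 3 genes most correlated with each of the 7. Stage tests have 3 libraries a group, pooled from 3 animals each.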

Additional observations from a re-analysis of the deposited data

Results flagged for a closer look

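Single libraries far from the others of their group were found in 12 of 45 groups of 4 to 10 libraries tested. The limit used lets about 1 in 20 groups pass by chance for continuous values, a rate that does not hold for counts this low, since 1 UMI among libraries at 0 always passes it. For Pdgfb they rest on 1 or 2 UMIs. These were 0.944 CPM in chondrocytes of resolving replicate 1, 18.3 CPM in muscle fibre of peak replicate 1, 1.20 CPM in proliferating cells of rest replicate 2 and 0.316 CPM in the Hp fibroblast cluster of resolved replicate 2. Pdgfc was 30.6 CPM in chondrocytes of resolved replicate 2, from 4 UMIs, beside a median of 1.04 CPM over 8 libraries. Pdgfd was 3.12 CPM in chondrocytes of rest replicate 1 (3 UMIs) and 6.57 CPM in muscle satellite cells of resolved replicate 3 (1 UMI). In the Hp cluster of resolved replicate 1, Pdgfd was 57.2 CPM from 5 UMIs in 12 cells, with the next library at 18.1 CPM. Pdgfra was 37.3 CPM in chondrocytes of peak replicate 2 and 23.3 CPM in muscle fibre of resolving replicate 3, from 2 UMIs each. In muscle satellite cells of rest replicate 3 (15 cells), Pdgfrb was 78.2 CPM from 3 UMIs, beside a median of 11.5 CPM, and Pdgfrl was 209 CPM from 8 UMIs, beside a median of 72.5 CPM and a next library at 105 CPM.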

How the results depend on the processing

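Of the 55 PDGF calls between cell types and fibroblasts, 44 held their direction and side of the threshold in every alternative that gave them a value. Some calls between types had no value in some alternatives, which gave 1300 values in all. Of the 31 calls between fibroblast clusters, 28 held, but no other clustering was tried for these. Leaving out each library gave 50 to 56 and 29 to 32 calls, and 0 to 1 between Hk2-positive and Hk2-negative fibroblasts. Sums of at least 30 cells gave 35 calls between types, since fewer libraries and types then have a sum. With total counts 1 PDGF gene passed between Hk2-positive and Hk2-negative cells, Pdgfd at -0.58, against 0 as reported. Pdgfb in immune cells, at 2 UMIs, was -1.30 without peak replicate 2, on the other side of 0, and ran up to 4.69 over the other libraries left out. DESeq2 gave 60 calls between types, among them Pdgfb in erythroid and muscle satellite cells, which had 0 UMIs. Comparisons of labels gave 0 PDGF calls in every alternative, with the replicate number or the suffix run as a block included. Over all genes, calls between types were 41349 as reported and 24434 in sums of at least 30 cells. Between fibroblast clusters they were 13668, and 22840 with no filter on low counts. By Hk2 status they were 699, and 320 with equal numbers of positive and negative cells drawn per library and cluster, which are fewer cells. By label, 0 genes as reported compare with 2 in fibroblasts with DESeq2, with 30 in perivascular cells with no filter and 2 with the replicate block, and with 71 in vascular endothelial cells with no filter. The replicate numbers overlap with the suffix runs in part, and whether they pair libraries was not settled. Over 18 pairs of the same number, correlations of fibroblast profiles centred by label ran from -0.54 to 0.71, and 6 of 12 libraries correlated best with one of their own number. Depth limits what 0 UMIs can show, which was up to 22.3 CPM for Pdgfb in erythroid cells.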
